A study of Rattus norvegicus with 8 samples.

Results

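Chemokine receptors of leukocytes were examined as a group of 9 genes, Cxcr1, Cxcr2, Cxcr3, Cxcr4, Cxcr6, Ccr1, Ccr3, Ccr6 and Ccr9, selected by gene name from the 17446 genes counted in rat whole blood. RNA-seq had been carried out on 8 libraries from male Wistar rats aged 12–14 weeks, with 2 libraries for each of 4 groups. In the AngII model, a minipump delivered angiotensin II at 0.4 mg/kg/day. Blood was drawn at week 1 before and at week 5 after 4 weeks of Chios mastic gum (CMG), a tree resin given by daily gavage at 220 mg/kg. In the DOCA–HS model, deoxycorticosterone acetate at 100 mg/kg was injected weekly and the rats drank water with 0.9% NaCl and 1% KCl, with blood drawn at week 3 before and at week 7 after the same CMG administration. All 4 groups came from rats of a hypertension model, with no genetic change stated. Libraries of control rats were not analysed here, so a change after CMG and the 4 further weeks of the model and of age cannot be told apart.

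Chemokine receptors are G protein-coupled receptors on the surface of leukocytes that bind small secreted proteins, the chemokines, and steer the cells along their gradients. Signalling runs through inhibitory G proteins, phospholipase C beta and Rac to the cytoskeleton and the integrins, and is ended by receptor kinases, arrestins and RGS proteins. In blood, CXCR2 and, in many species, CXCR1 guide neutrophils, CXCR4 retains cells in the bone marrow through CXCL12, CXCR3 and CXCR6 mark effector T cells and NK cells, and CCR1 is found on monocytes. CCR3 is the eotaxin receptor of eosinophils and basophils, CCR6 is carried by B cells and some T cells, and CCR9 directs lymphocytes to the small intestine.

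The library labelled DOCA–HS after replicate 2 stood apart from the other 7. It held 4149104 counts, of which 84.3% fell on the 2 hemoglobin genes, against totals of 6804001 to 13205565 and shares of 61.9% to 71.0% elsewhere. Its 10 pan-leukocyte genes (Ptprc, Coro1a and others) summed to 983 counts, against 5022 to 18425 in the other libraries, and its 9 receptor genes to 78 counts, against 437 to 1081. Levels are given as normalized CPM, for which the library total is multiplied by its TMM factor, a scaling that sets most genes level between libraries. A limit of 3 counts corresponded to 2.11 normalized CPM in that library and to 0.166 to 0.507 in the others. All 10 pan-leukocyte genes and the 6 erythroid genes counted exceeded 3 counts in every library. In such bulk samples, fewer cells of a type and less RNA per cell cannot be told apart.

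Most receptor counts came from Cxcr4. It held between 68.9% and 92.3% of the counts of the 9 genes in a library, both extremes being found in the DOCA–HS model. These shares were not corrected for transcript length and are shares of reads, not of receptor molecules. For the AngII model they were 89.3% and 91.7% before, then 78.0% and 72.5% after CMG, so that the remaining receptors took up more of the total in both libraries after CMG. For the DOCA–HS model they were 78.0% and 68.9%, then 71.7% and 92.3%, and the groups overlapped.

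**Figure D1:**
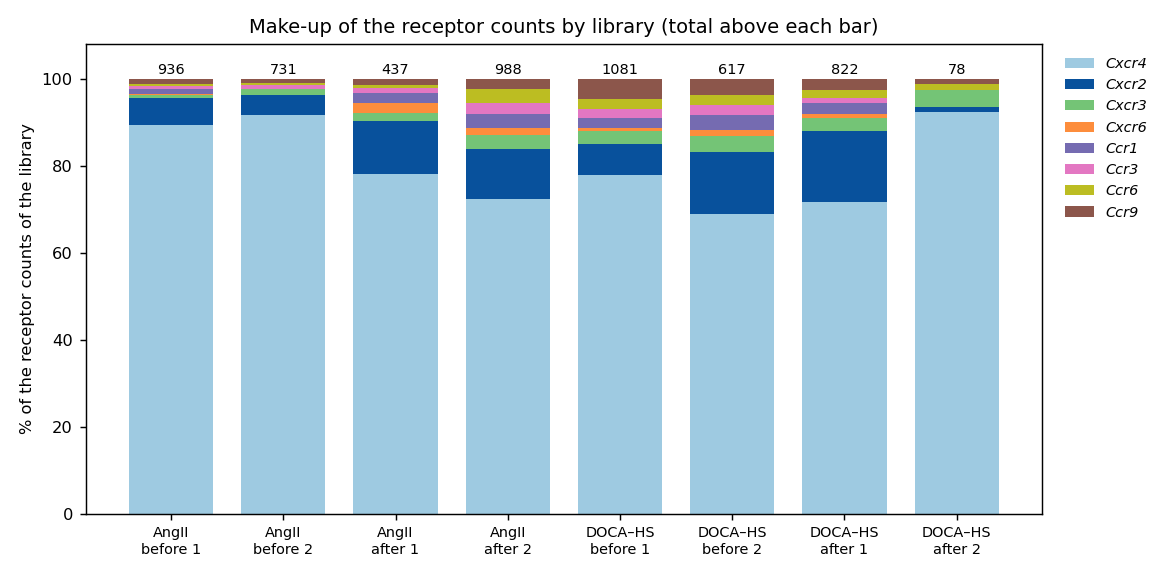
Share of each receptor gene (y axis, percent) in the summed counts of the 9 genes, 1 bar per library, with the sum printed above each bar. Cxcr4 takes up 68.9% to 92.3% of each bar, and the bar of DOCA–HS after replicate 2 rests on 78 counts.

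Cxcr4 encodes the receptor for CXCL12 and had at least 72 counts in every library. Its promoter is shown because this gene carries most of the receptor counts and, unlike the other 7 receptors with an entry, has both a TATA box and GC boxes ahead of its start. The 250 bases before the start site of Cxcr4 on the reverse strand (RefSeq, GRCr8 chr13:42634289-42634538), with matches in capitals, read:
Cxcr4: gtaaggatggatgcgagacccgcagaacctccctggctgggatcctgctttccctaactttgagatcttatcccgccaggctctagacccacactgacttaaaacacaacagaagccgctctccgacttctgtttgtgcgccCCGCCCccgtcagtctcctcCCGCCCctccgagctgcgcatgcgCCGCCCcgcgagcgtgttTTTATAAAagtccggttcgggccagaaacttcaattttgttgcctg
The capitals mark matches on either strand. The TATA box was searched as TATAAA. For the GC box the letters were GGGCGG. The other motif searched was CCAAT. The window held 3 GC boxes, and its 2 TATA box matches, 1 per strand, overlapped. Of 33469 promoter windows of the same length, 12.9% held TATAAA, 30.5% GGGCGG and 34.0% CCAAT. GC content was 57.6%, against a median of 51.2%. Such a match is a description of the sequence only, and the reads had been aligned to another assembly, rn6.

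Cxcr4 had 836 and 670 counts in the AngII libraries before CMG, and 341 and 716 in those after it. As normalized CPM these were 65.7 and 113 before and 54.5 and 53.0 after, a mean of 89.4 ± 33.6 (SD, n = 2) against 53.8 ± 1.13. Both libraries after CMG lay below both before it, and the libraries before CMG lay further apart than the means. The log2 fold change was −0.70 (SE 0.36), with unadjusted p = 0.0879 and an adjusted p = 0.759 in edgeR's quasi-likelihood test with Benjamini-Hochberg adjustment, so Cxcr4 did not pass. Without AngII before replicate 2, the library with 113, the log2 fold change was −0.32. It was −0.30 with scaling to library totals, a scale on which the median of all genes was 0.36.

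The corresponding Cxcr4 counts of the DOCA–HS model were 843 and 425, then 589 and 72. The normalized CPM were 46.7 and 45.1 before and 45.3 and 50.6 after, and the groups overlapped. The log2 fold change was 0.06 (SE 0.46), and −0.01 without DOCA–HS after replicate 2. Scaled to library totals it was −0.76, where the median of all genes was also −0.76. Of all libraries, the 2 of AngII before CMG had the highest Cxcr4 levels, and the other 6 lay between 45.1 and 54.5.

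Per 1000 pan-leukocyte counts, Cxcr4 went from 81.9 and 124.6 before to 67.9 and 53.9 after CMG in the AngII libraries, and from 45.8 and 44.1 to 51.4 and 73.2 in the DOCA–HS libraries. On this scale both libraries after CMG again lay below those before it in the AngII model, while in the DOCA–HS model both lay above. Over the 8 libraries, the genes whose log2 CPM was most like that of Cxcr4 among 7400 ranked were Cox16 (an assembly factor of cytochrome c oxidase), Fbxw4 (an F-box protein) and Pi4kb (a phosphatidylinositol 4-kinase), with Pearson's r of 0.956, 0.954 and 0.947. Without DOCA–HS after replicate 2, r over 7 libraries was 0.994, 0.969 and 0.956. The points share libraries and depth, and Cox16 had only 3 to 29 counts. No other receptor had at least 10 counts in every library, so no such genes were sought for them.

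Cxcr1 and Cxcr2 are neighbouring genes in GRCr8, and both encode receptors of neutrophil chemokines. Cxcr1 was at 0 counts in all 8 libraries, so that at most 3 counts, or 0.227 to 0.723 CPM of the library total, are allowed. Cxcr2 was read in all 8, with 1 to 135 counts. The 250 bases before the start of each are shown to set the gene without counts beside the one that was read, Cxcr1 on the reverse strand (GRCr8 chr9:83220226-83220475) and Cxcr2 on the forward strand (GRCr8 chr9:83178395-83178644), with capitals as above:
Cxcr1: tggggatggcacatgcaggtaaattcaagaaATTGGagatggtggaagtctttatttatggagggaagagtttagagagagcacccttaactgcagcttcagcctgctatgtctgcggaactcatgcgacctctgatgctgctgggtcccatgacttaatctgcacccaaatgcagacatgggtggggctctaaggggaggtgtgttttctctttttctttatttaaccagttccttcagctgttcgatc
Cxcr2: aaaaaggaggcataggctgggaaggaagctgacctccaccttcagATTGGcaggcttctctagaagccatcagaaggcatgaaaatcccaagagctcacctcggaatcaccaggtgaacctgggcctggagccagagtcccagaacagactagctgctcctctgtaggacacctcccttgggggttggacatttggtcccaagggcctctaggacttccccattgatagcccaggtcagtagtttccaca
Each window held 1 CCAAT match on the opposite strand and no TATAAA or GGGCGG. GC content was 47.2% for Cxcr1 and 54.4% for Cxcr2.

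Cxcr2 stood higher in both libraries after CMG in the AngII model. Its counts were 59 and 33 at first, against 54 and 113 under CMG, or 4.64 and 5.57 normalized CPM before and 8.64 and 8.36 after. The groups did not overlap, and the replicates of each lay close together. The log2 fold change was 0.76 (SE 0.29), with unadjusted p = 0.0283 and an adjusted p = 0.685 (edgeR), short of the fold required by the criterion. It lay between 0.62 and 0.84 with any 1 library left out. Neutrophil markers had a summed level of 260 and 245 normalized CPM before and 239 and 208 after CMG, lower in both libraries, with 9 of 10 markers above 3 counts in each of these libraries. Most of that sum came from S100a8 and S100a9. The median log2 fold change of the 9 markers tested was −0.37, against −0.01 over all genes. Of these 9, 2 stood above 0, Csf3r (the G-CSF receptor) at 0.57 and Mmp9 at 0.28. Their part in the Cxcr2 values was not tested. Ltf, a granule protein of neutrophil precursors, was at 0 to 1 count throughout.

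Replicates of Cxcr2 were far apart in the DOCA–HS model. Its counts were 76 and 88 before, then 135 and 1 after CMG, or 4.21 and 9.35 normalized CPM before and 10.4 and 0.703 after. The single count belonged to DOCA–HS after replicate 2, which had the highest summed level of neutrophil markers, 499 normalized CPM against 190 in the other library after CMG and 127 and 429 before it. In that library the neutrophil genes S100a8 and S100a9 had 238 and 408 counts. Csf3r, the receptor for G-CSF, had 24, against 230 to 810 elsewhere, and Mmp9 18, against 35 to 126. These are raw counts, not scaled to depth. The library total multiplied by its TMM factor was 1422190 there, against 5919830 to 18052500 elsewhere. The log2 fold change of Cxcr2 was 0.03 (SE 0.75), 0.67 without DOCA–HS after replicate 2 (unadjusted p = 0.0436, adjusted p = 0.501, edgeR) and −3.20 without DOCA–HS after replicate 1, where it passed the criterion (unadjusted p = 0.0161, adjusted p = 0.0821, edgeR) along with 1712 of 8126 genes. Per 1000 pan-leukocyte counts, Cxcr2 went from 5.78 and 6.14 to 10.8 and 8.51 in the AngII libraries and from 4.12 and 9.12 to 11.8 and 1.02 in the DOCA–HS libraries.

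**Figure D2:**
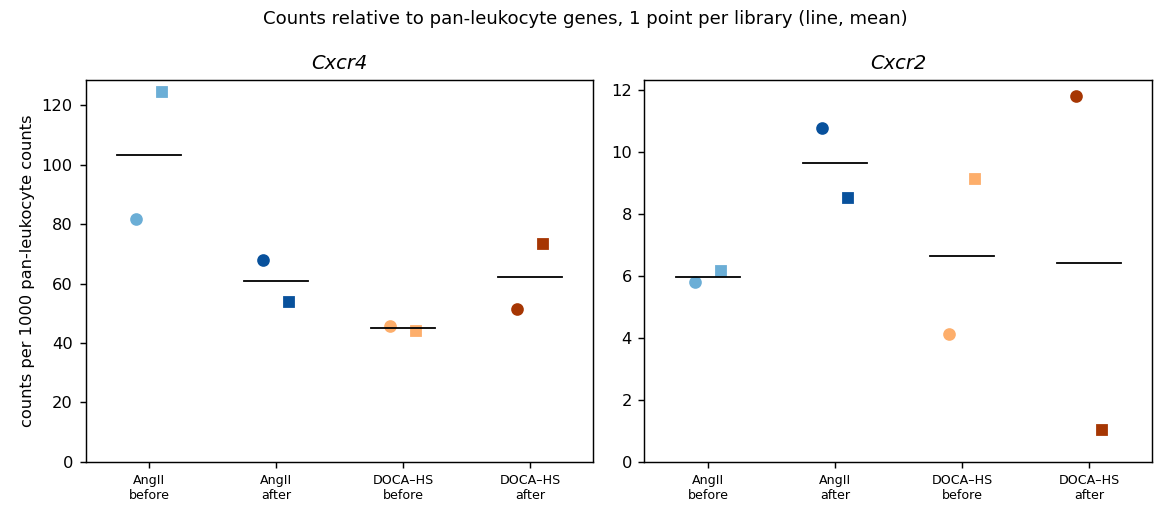
Counts of Cxcr4 (left) and Cxcr2 (right) per 1000 counts of the 10 pan-leukocyte genes (y axis), 1 point per library (circle, replicate 1; square, replicate 2), the line being the group mean. Cxcr4 is highest in the 2 libraries of AngII before CMG, 81.9 and 124.6, and the lowest Cxcr2 point, 1.02, rests on 1 count.

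**Figure D3:**
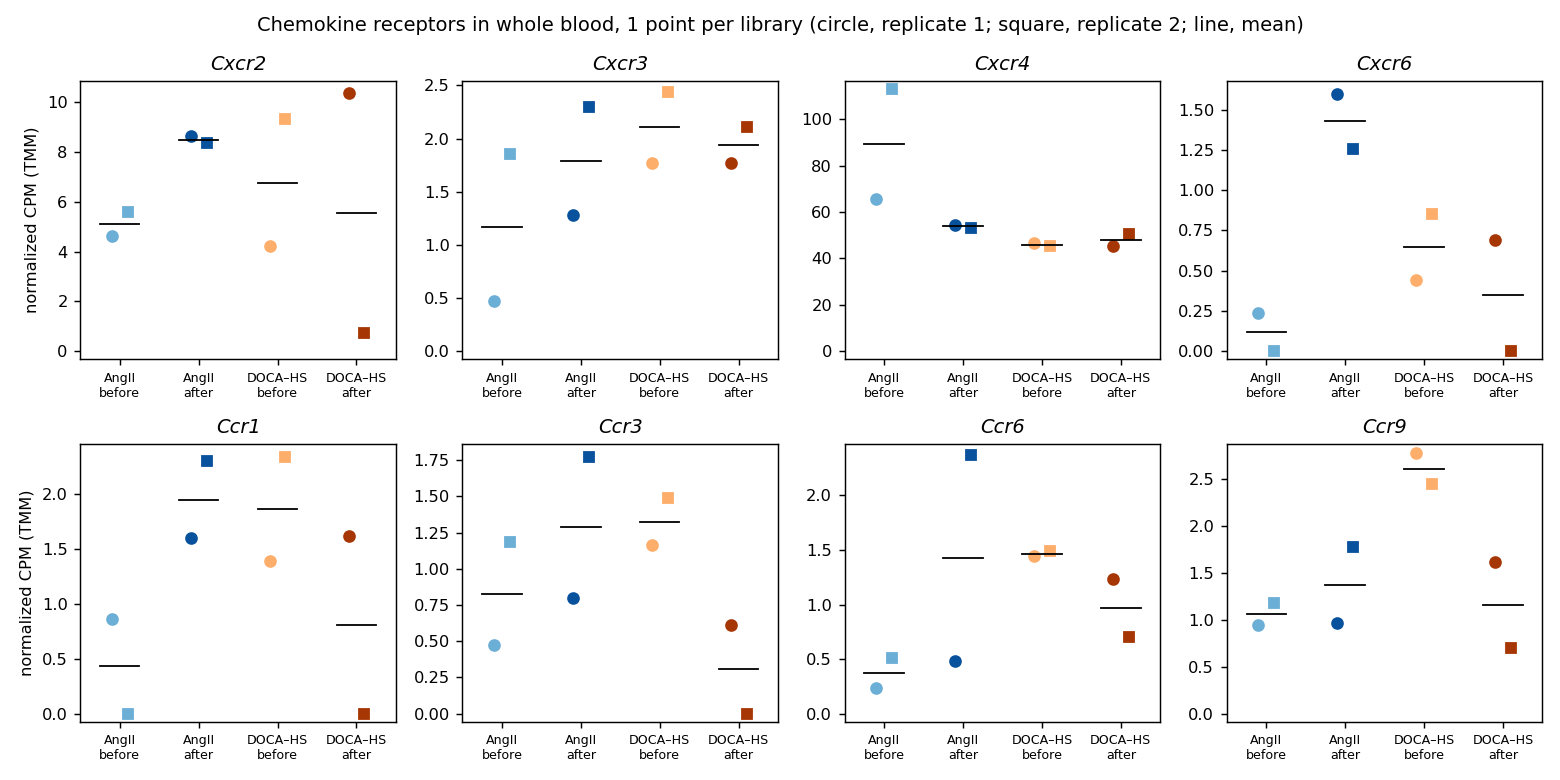
Normalized CPM (y axis, a separate scale for each gene) of the 8 receptor genes with any count, 1 point per library (circle, replicate 1; square, replicate 2), the line being the group mean. In the AngII model the points after CMG lie above those before it for Cxcr2, Cxcr6 and Ccr1 and below them for Cxcr4.

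Cxcr6, whose ligand is the membrane-bound chemokine CXCL16, was the 1 receptor that passed the criterion in the AngII model. It passed the filter on low counts only through the libraries after CMG, where it is high, so its call is a description. Its counts were 3 and 0 before, then 10 and 17 after CMG, a normalized CPM of 0.118 ± 0.167 (SD, n = 2) against 1.43 ± 0.242. Both libraries after CMG lay above both before it. The ratio of the summed counts, scaled to library size, was 8.49, with a 95% interval of 2.61 to 43.7 that covers counting error only. The fitted log2 fold change was 3.08 (SE 0.92) and depends on the prior count, with unadjusted p = 0.00982 and an adjusted p = 0.628 (edgeR). It was 6.61 without AngII before replicate 1, which leaves the group before CMG at 0, and too few counts remained for a test without AngII after replicate 2. Cxcr6 had 8 and 8, then 9 and 0 counts in the DOCA–HS model and was not tested, since it failed the filter on low counts.

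Cxcr3, the receptor for interferon-induced CXCL9 and CXCL10, went from 6 and 11 counts to 8 and 31 in the AngII libraries. The groups overlapped, at 0.472 and 1.86 normalized CPM before and 1.28 and 2.29 after, and the log2 fold change of 0.87 (SE 0.69, unadjusted p = 0.245, adjusted p = 0.823, edgeR) was 0.01 without AngII before replicate 1 and 1.91 without AngII before replicate 2, where it passed the criterion. Its DOCA–HS counts were 32 and 23 before and 23 and 3 after, with a log2 fold change of −0.17 (SE 0.55), and the groups again overlapped. Markers of NK cells had a higher summed level after CMG in the AngII model, 43.4 and 40.9 normalized CPM before and 81.4 and 73.3 after. Of 7 NK cell markers tested, 2 were upregulated, against 0.903% of all genes tested. These were Tbx21 (a transcription factor of effector lymphocytes), by a log2 fold change of 2.65, and Klrb1a (an NK cell receptor), by 1.77. Both passed the filter only through the libraries after CMG, where they are high, so that count is a description. T cell markers stood at 235 and 254 before and 171 and 213 after, and their part and that of NK cells in the Cxcr6 result was not tested.

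Ccr1, a receptor for CCL3 and CCL5, went from 11 and 0 counts to 10 and 31 in the AngII libraries. The groups did not overlap, at 0.865 and 0 normalized CPM before and 1.60 and 2.29 after. Ccr1 passed the filter on low counts only through the libraries after CMG, where it is high, so its values are a description. The ratio of the summed counts was 3.51, with a 95% counting interval of 1.77 to 7.58, and the fitted log2 fold change was 1.87 (SE 0.83), with unadjusted p = 0.0549 and an adjusted p = 0.752 (edgeR). It was 7.10 without AngII before replicate 1, which leaves the group before CMG at 0, and 2.01 without AngII after replicate 1, passing the criterion in both, and 1.16 without AngII before replicate 2. Ccr1 had 25 and 22 counts before and 21 and 0 after in the DOCA–HS model, and its log2 fold change was −0.47 (SE 0.73). The change was −0.14 without DOCA–HS after replicate 2, and it passed the criterion only without DOCA–HS after replicate 1, which leaves the group after CMG at 0 and with which 1712 of 8126 genes passed. AngII libraries had monocyte markers at a sum of 420 and 412 normalized CPM before and 525 and 524 after CMG. Most of that sum came from Lyz2, with a log2 fold change of 0.23. The median of the 8 markers tested was 0.57, and 7 of them stood above 0, Cd14 being at −0.89. Their part in the Ccr1 values was not tested.

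Ccr3 was too low for a test in the AngII model, with 6 and 7 counts before and 5 and 24 after. It had 21 and 14, then 8 and 0 counts in the DOCA–HS model, and the values after CMG lay below those before it. Ccr3 passed the filter there only through the libraries before CMG. The log2 fold change was −1.29 (SE 0.80), with unadjusted p = 0.145, and −1.06 without DOCA–HS after replicate 2. The 0 of that library allows up to 2.11 normalized CPM, above the level of Ccr3 in every other library (0.472 to 1.77). Eosinophil markers other than Alox15, which red cell precursors also make, summed to only 3 to 16 counts in a library, basophil and mast cell markers to 2 to 43, and Mcpt8 was at 0 in all 8.

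Ccr6, the receptor for CCL20, went from 3 and 3 counts to 3 and 32 in the AngII libraries, below the filter for a test. The normalized CPM overlapped, at 0.236 and 0.507 before and 0.480 and 2.37 after, and the ratio of the summed counts, 5.50 (95% counting interval 2.29 to 16.0), rested on AngII after replicate 2. Markers of B cells summed to 137 normalized CPM in that library, against at most 102 in the other 3 AngII libraries. Ccr6 had 26 and 14, then 16 and 1 counts in the DOCA–HS model, with a log2 fold change of −0.36 (SE 0.62). The 1 count in DOCA–HS after replicate 2 is under the limit of 2.11 normalized CPM, which lies above both values before CMG. B cell markers summed there to 165 and 123 normalized CPM before and 99.1 and 56.3 after, and their part in the Ccr6 values was not tested.

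Ccr9, the receptor for CCL25, had its highest levels in DOCA–HS before CMG. It had 50 and 23 counts there, then 21 and 1, or 2.77 and 2.44 normalized CPM before and 1.61 and 0.703 after. Both libraries after CMG were lower than both before it, and the log2 fold change was −0.86 (SE 0.56), with unadjusted p = 0.158, or −0.69 without DOCA–HS after replicate 2. Ccr9 was not tested in the AngII model, where it had 12 and 7, then 6 and 24 counts. CCR9 is also known from plasmacytoid dendritic cells, whose markers summed to 6 to 165 counts, with Cox6a2 at 0 in all 8 libraries.

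Across the AngII model, 5 of the 9 receptors passed the filter on low counts. Cxcr6 and Ccr1 passed it only through the libraries after CMG, where they are high, so the counts and median over these 5 are descriptions and do not stand for all 9. By the criterion used in the study, a log2 fold change beyond 1.5 with an unadjusted p of at most 0.05, Cxcr6 was upregulated and 0 were downregulated. Of the 7201 genes tested, 1.24% passed in either direction and 0.903% as upregulated. At an unadjusted p of at most 0.05 alone, 2 passed (Cxcr2 and Cxcr6), against 6.65% of all genes. Levels after CMG were above those before in both libraries for 3 receptors, as for 21.3% of all genes, and below for 1, as for 18.5%. The median log2 fold change of the 5 was 0.87, and that of all genes tested was −0.01. No receptor, and no gene, had an adjusted p under 0.05 in this fit, the lowest over all genes being 0.474 (edgeR). Blocking on the replicate number gave 165 such genes, Cxcr6 among them. There were 51 with no filter and 281 without AngII after replicate 1, none of them a receptor.

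For the DOCA–HS model, 7 of the 9 were tested and 0 passed, against 2.05% of 7720 genes. At an unadjusted p of at most 0.05, 0 of the 7 passed, against 3.17% of all genes, and DESeq2 also gave 0. The values of Ccr3, Ccr6 and Ccr9 after CMG lay below those before it, as did 21.1% of all genes, but for Ccr3 and Ccr6 the limit of 3 counts in DOCA–HS after replicate 2 exceeds their values before CMG, so that lower levels in that library were not detectable. Of the 7, 0 had both values after CMG above those before it, as had 14.7% of all genes. The median log2 fold change of the 7 was −0.36, and that of all genes was −0.04. Ccr3 passed the filter on low counts only through the libraries before CMG, where it is high. The counts and median over these 7 are thus descriptions.

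**Figure D4:**
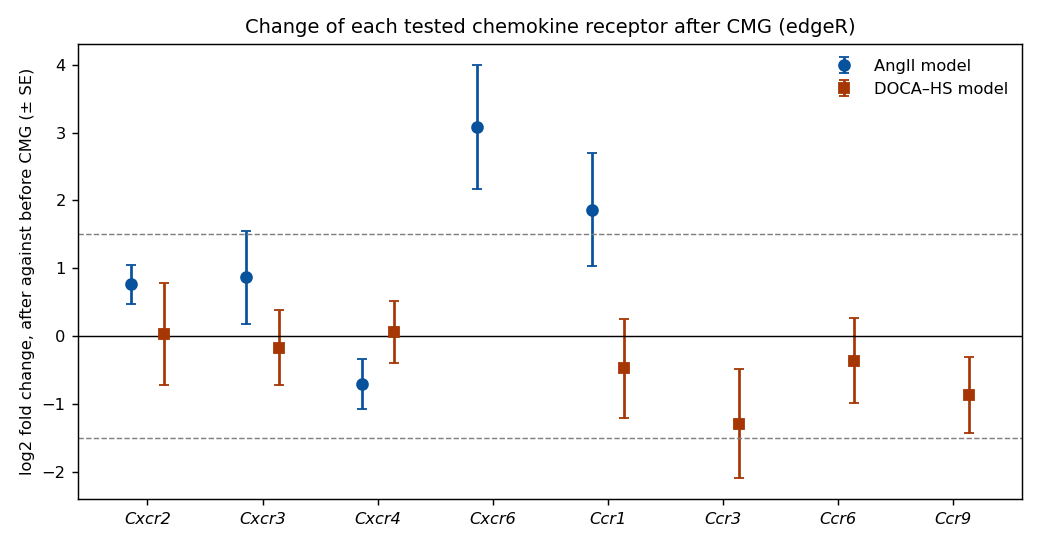
Log2 fold change after against before CMG (y axis, points with SE) for each receptor tested, from edgeR fits to the 4 libraries of a model (circles, AngII; squares, DOCA–HS). Dashed lines mark 1.5 in either direction, and Cxcr6 in the AngII model, at 3.08, is the only point past them with an unadjusted p of at most 0.05. Cxcr6 and Ccr1 there, and Ccr3 in the DOCA–HS model, passed the filter on low counts only through the group where they are high.

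Whether the models differed in the change after CMG was tested in a fit over all 8 libraries, in which 8 receptors passed the filter. Relative to the AngII model, the change in the DOCA–HS model was lower for Cxcr6, by a log2 difference of −3.15 (SE 1.31, unadjusted p = 0.0354), and for Ccr6, by −2.56 (SE 1.10, unadjusted p = 0.0406), both with an adjusted p = 0.881 (edgeR). These 2 passed the criterion, against 3.16% of 7994 genes in either direction and 0.913% in that direction. In this fit Cxcr6 passed the filter on low counts only through the libraries of AngII after CMG, where it is high. Its call and the median over the 8 receptors are thus descriptions. Cxcr4 had a difference of 0.79. The median difference was −1.74 over the 8 receptors and −0.12 over all genes, so that most genes also lay below 0. Without DOCA–HS after replicate 2, Cxcr6 stayed at −2.90 (unadjusted p = 0.0412) and Ccr6 at −2.46 (unadjusted p = 0.0541, edgeR), and Ccr6 was at −0.88 without AngII after replicate 2. Leaving out DOCA–HS before replicate 2 left 0 receptors past the criterion. Averaged over both models, 0 receptors passed, against 0.325% of all genes, and Cxcr4 had a log2 change of −0.34. Between the models, 0 receptors passed, against 0.238% of all genes, and Cxcr4 was lower in the DOCA–HS model by a log2 difference of −0.57 (SE 0.30, unadjusted p = 0.0891, adjusted p = 1.00, edgeR). In these comparisons 0 receptors had an unadjusted p of at most 0.05, against 3.90% and 2.60% of all genes, while DESeq2 gave 0 and 1, the latter Cxcr4 with a log2 difference of −0.56 (unadjusted p = 0.0392, adjusted p = 0.681).

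The remaining chemokine receptors gave 11 further genes, of which 5 were tested in the AngII model. Cxcr5, which guides B cells to follicles, was upregulated, with 7 and 2 counts before and 8 and 39 after CMG and a log2 fold change of 2.19 (unadjusted p = 0.00968, adjusted p = 0.628, edgeR). It passed the filter only through the libraries after CMG, and too few counts remained for a test without AngII after replicate 2. The median of the 5 was 1.33. The most read members of that list did not pass, Ccr7, the lymph node homing receptor, being at 0.20, Ccrl2 at −0.17 and Cx3cr1 at 1.33. Of 4 tested in the DOCA–HS model 0 passed, against 2.05% of all genes, with Ccr7 at −0.75, Ccrl2 at 0.45 and Cx3cr1 at 1.20.

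Among the ligands, 33 chemokine genes were counted and 8 were tested in the AngII model. Cxcl2, a neutrophil chemokine that binds CXCR2, was downregulated by the criterion, with 119 and 72 counts before and 27 and 17 after CMG and a log2 fold change of −2.02 (unadjusted p = 0.00458, adjusted p = 0.628, edgeR). It was −1.28 without AngII after replicate 2, short of the fold threshold, and −3.11 without AngII after replicate 1. Cxcl16, the ligand of CXCR6, stood at 1.39 (unadjusted p = 0.0177, adjusted p = 0.628, edgeR), below the fold threshold. The most read chemokines were Pf4 and Ccl5, both stored in platelets, and Ccl6, with log2 fold changes of −0.40, 0.89 and 0.43. Cxcl12, the ligand of CXCR4, had at most 3 counts in any library, and Ccl25, that of CCR9, had 0.

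There were 7 chemokines tested in the DOCA–HS model, and Pf4 was upregulated, with 2678 and 1864, then 5596 and 1010 counts and a log2 fold change of 1.72 (unadjusted p = 0.0238, adjusted p = 0.997, edgeR). It was 0.77 with scaling to library totals and 1.32 without DOCA–HS after replicate 2, and passed under neither. Ccl5 stood at 1.15 (unadjusted p = 0.0332, adjusted p = 0.997, edgeR) and Ccl6 at −0.28. Platelet markers summed to 182 and 264 normalized CPM before and 522 and 949 after CMG, but most of that sum was Pf4 itself. It held 2678 of 3291 and 1864 of 2488 counts before, then 5596 of 6791 and 1010 of 1349 after. The other markers tested, Treml1, Gp9 and Ppbp, had log2 fold changes of 1.92, 1.26 and 0.75. Their part in the Pf4 result was not tested.

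Of the signal transduction and desensitization genes 31 were counted, and 30 were tested in each model. Plcb3, a phospholipase C beta, was upregulated in the AngII model, with 9 and 2 counts before and 15 and 28 after CMG and a log2 fold change of 1.95 (unadjusted p = 0.00915), but it passed the filter on low counts only through the libraries after CMG. Rgs1, which shortens chemokine receptor signals, was downregulated, with 213 and 97 counts before and 40 and 37 after and a log2 fold change of −1.89 (unadjusted p = 0.00211), both with an adjusted p = 0.628 (edgeR). Rgs1 was at −1.35 without AngII after replicate 2. The most read genes, Gnai2 (an inhibitory G protein subunit), Tln1 (talin) and Rac2, stood at −0.01, 0.15 and 0.01. The median of the 30 was 0.07. The DOCA–HS model had 0 of 30 passing, against 2.05% of all genes, with Plcb3 at −0.15 and Rgs1 at −0.57.

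Of 19 genes for other chemoattractant receptors and adhesion molecules, 13 were tested in the AngII model. S1pr1, the sphingosine 1-phosphate receptor by which lymphocytes leave tissues, was downregulated, with 1121 and 739 counts before and 158 and 475 after CMG and a log2 fold change of −1.79 (unadjusted p = 0.00107, adjusted p = 0.590, edgeR). It was −1.35 with scaling to library totals, short of the fold threshold. The integrin chains Itgb2 and Itgal, among the most read of that list, stood at 0.65 and 0.76, and the median of the 13 was 0.65. Of 14 tested in the DOCA–HS model 0 passed, against 2.05% of all genes, with S1pr1 at −1.15.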

How the data were processed

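RNA had been extracted from whole blood of rats with AngII or DOCA–HS hypertension, collected by cardiac puncture with heparin per the labels. The authors aligned single-end reads to rn6 with HISAT2, counted them by strand with HTSeq 2.0.3 and deposited raw counts per gene. They state that hemoglobin annotations were removed, but Hbb and LOC100134871 are among the deposited counts. DESeq2 was the authors' tool. edgeR 4.0.16 (R 4.3.3) was used here (filterByExpr, TMM, quasi-likelihood test), with the 4 libraries of a model fitted alone and all 8 for the other comparisons. Adjusted p-values are Benjamini-Hochberg values over all genes tested. Each SE was derived from the quasi-likelihood test, as the absolute log2 fold change divided by the square root of its F statistic. CPM used the TMM factor of the fit over 8 libraries, and log2 CPM a prior count of 2. Alternatives were DESeq2 1.42.0, limma-voom (limma 3.58.1), other scalings, filters and thresholds, a replicate block, and each library left out. The computation was tested on simulated data.

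Neither the labels nor the methods tie a library to a rat, so p-values measure the spread between libraries, which may be technical. Replicates differed by more than counting error (chi-square per degree of freedom 15.4 to 94.6). That value is summed over genes scaled to raw totals, with the hemoglobin genes included, so it does not give the spread of the receptors. The receptors and all gene lists were chosen with earlier results of these data known. Named were all 9 receptors, from each related list every gene passing in a model and the 3 most read, and the 3 genes of highest r for receptors that had 10 or more counts throughout. Genes named beyond this (Cxcl12, Cxcl16, Ccl25 and single markers) were chosen after their values were seen. RefSeq GRCr8 tables gave a gene entry for 9 receptors and a promoter for 8, and coordinates given here are of GRCr8. The eosinophil list without Alox15 and the correlation over 7 libraries were added after seeing the data. Transcript lengths were not used here, so levels are not compared between genes. Of the genes this rule named, 2 are not reported here.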

Additional observations from a re-analysis of the deposited data

Results flagged for a closer look

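Cxcr6 and Ccr6 were singled out because their change after CMG differed between the models in the test of that difference. The log2 difference, DOCA–HS minus AngII, was −3.15 for Cxcr6 (unadjusted p = 0.0354) and −2.56 for Ccr6 (unadjusted p = 0.0406), with an adjusted p = 0.881 for both (edgeR's quasi-likelihood test over 8 libraries). Cxcr6 had 3 and 0 counts before and 10 and 17 after CMG in the AngII model, against 8 and 8 before and 9 and 0 after in the DOCA–HS model. For Ccr6 the counts were 3 and 3 before and 3 and 32 after, against 26 and 14 before and 16 and 1 after. Both differences thus rest on counts of at most 32. Cxcr6 passed the filter on low counts in this fit only through the libraries of AngII after CMG, where it is high. Neither gene passed the criterion with DESeq2 or with pan-leukocyte scaling, and Ccr6 did not pass with limma-voom or the replicate block either. With 1 library left out, the difference ran from −8.63 to −2.59 for Cxcr6 and from −3.23 to −0.88 for Ccr6. Each fell short of the criterion in some of these fits.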

How the results depend on the processing

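With 2 libraries a group and few counts outside Cxcr4, the number of receptors passing the criterion moved by single genes. In the AngII model it was 1, and it was 2 with the p threshold alone, library totals, totals outside hemoglobin, limma-voom, or all 8 libraries in 1 fit, 3 with no filter, 0 with the adjusted p or with at least 10 counts in every library, and 0 to 3 with 1 library left out, 0 being the value without AngII after replicate 2. With the replicate number as a block it was 2 (Ccr1 and Cxcr6), Cxcr6 having an adjusted p = 0.0286 and Ccr1 0.0756 (edgeR). Same-numbered libraries deviated together (correlation over genes 0.474 for AngII, 0.321 for DOCA–HS), but with 2 pairs and no label for it the numbers were not taken to pair the libraries. In the DOCA–HS model the count was 0, and 0 to 2 with 1 library left out, 2 (Cxcr2 and Ccr1) being the value without DOCA–HS after replicate 1, where 1712 of 8126 genes passed. For the difference between the models it was 2, and 0 with the adjusted p, DESeq2, pan-leukocyte scaling or at least 10 counts in every library, 4 with no filter, 3 with limma-voom (Ccr1, Ccr3 and Cxcr6), 2 with the replicate block (Ccr1 and Cxcr6), and 0 to 3 with 1 library left out, Ccr6 not passing with limma-voom or the block. For the average change and for the comparison of the models it was 0, and 0 to 1 with 1 library left out, Cxcr6 passing without DOCA–HS before replicate 2 and Ccr6 without AngII after replicate 2. The causes were not tested.

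Among the values printed above, signs changed for Cxcr2, Cxcr3 and Cxcr4. The log2 fold change of Cxcr2 in the DOCA–HS model was −0.14 with DESeq2, −0.28 with library totals, −0.20 with totals outside hemoglobin, −0.00099 with no filter, −0.14 with the replicate block and −3.20 to 0.67 with 1 library left out. That of Cxcr3 was 0.12 with pan-leukocyte scaling and −0.37 to 0.10 with 1 library left out. For Cxcr4 it was −0.76 with library totals, −0.40 with totals outside hemoglobin, −0.25 with at least 10 counts in every library and −0.0096 to 0.14 with 1 library left out, and its difference between the models was −0.45 with library totals and −0.086 with totals outside hemoglobin. Of the other values for single genes, 352 kept their direction and side of the criterion, 27 no longer passed it and 20 came to pass it. The fitted value of Cxcr6 in the AngII model was 6.61 without AngII before replicate 1, and its difference between the models −6.86, and −8.63 without DOCA–HS after replicate 1, each leaving a group at 0. A fit with 1 library in a group assumes that it varies like the others. Depth limits DOCA–HS after replicate 2 most, where 1 of the 9 receptors exceeded 3 counts.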
